A study of Homo sapiens with 12 samples.

Results

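The proteasome genes described here were the 42 genes of 19775 on the table whose platform symbol was PSMA, PSMB, PSMC, PSMD, PSME, PSMF or PSMG followed by a number and nothing else. No measured value entered that symbol rule, though the gene set was chosen with earlier results of these data known. Each gene was represented by 1 probe set, a group of short probes for a transcript, namely the brightest by mean log2 signal on all 12 arrays. PSMB8 and PSMA8 were too dim to be tested, which left 40 tested genes. They comprised 13 subunits of the core barrel, 14 subunits of the 19S cap, 3 assembly factors of that cap, 4 assembly factors of the core, 3 genes of the immunoproteasome and 3 other regulators. The probe sets of PSME2 and PSMA6 carried a further gene symbol, so neither gene was analysed here. The cap subunits PSMC5, PSMD7 and PSMD13 were not among the 42 genes either, so the cap is incomplete here.

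The arrays hold total RNA of 2 stable lines made from HEK cells, an established line of human embryonic kidney origin. Each line carries a tetracycline-inducible transgene for TRPM7, a cation channel of the membrane fused to a kinase. The 4 groups of 3 arrays were the WT line with tetracycline, the WT line untreated, the mutant line with tetracycline and the mutant line untreated. The mutant line carried a TRPM7 without its C-terminal kinase domain, which the series uses as the nonfunctional control. Tetracycline was given for 72 hours, the labels give its amount as 1 ug without a volume, and all 4 groups grew with 5 ug/mL blasticidin. Each construct was studied in 1 line, and the sources used here do not say whether that line was a single clone or whether the 3 samples of a group were separate cultures. The p-values then measure only the spread between samples, which may be technical. In the bulk RNA, fewer cells of a type and less RNA per cell cannot be told apart.

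The proteasome is the protease that destroys proteins tagged with ubiquitin. Its core is a barrel of stacked rings, in which alpha subunits (PSMA genes) form the gate and beta subunits (PSMB genes) line the chamber, with PSMB5, PSMB6 and PSMB7 carrying the catalytic sites. The 19S cap binds the ubiquitin chain, removes it and unfolds the substrate with a ring of ATPases (PSMC genes) held among non-ATPase subunits (PSMD genes). Dedicated chaperones, PSMG1 to PSMG4, build the alpha ring. Interferon induces PSMB8, PSMB9 and PSMB10, which replace the constitutive catalytic subunits in the immunoproteasome, and PSME1, a subunit of an activator that docks in place of the cap. When proteasome activity falls, the transcription factor NFE2L1 is known to raise the genes of core and cap together.

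TRPM7 itself was not called higher with tetracycline on any tested probe set. On the brightest TRPM7 probe set the signal was 8.19, 7.79 and 6.88 log2 units in WT tetracycline. It was 8.68, 8.12 and 8.60 in WT untreated, with 8.53, 8.04 and 7.99 in mutant tetracycline and 8.45, 8.47 and 8.25 in mutant untreated. No tetracycline change was called on that probe set. Probe positions were not analysed here, so every tetracycline direction below rests on the labels. The 3′ over 5′ signal ratio of the beta-actin control, a sign of RNA integrity, is given in log2. It lay between 0.632 and 1.36 on the 6 WT line arrays and between 0.226 and 0.288 on the 6 mutant line arrays. The same ratio of the GAPDH control lay between 0.0152 and 0.168 on the WT line arrays. On the mutant line arrays it lay between 0.0382 and 0.135, so the GAPDH ratios of the lines overlapped. Of 9 HEK markers 8 passed the filter on dim signals, against 1 of the 8 blood and immune markers on the table and 3 of 9 fibroblast and endothelial ones. All values below are log2 MAS5 signals, every change is a log2 fold change with the standard error (SE) of 1 limma fit over all arrays (n = 3 per group), and calls are at a Benjamini-Hochberg adjusted p under 0.05.

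The first question was what tetracycline together with the WT channel changed. The 13 core and 14 cap subunits among the members did not pass the test in either direction, while 4 other members fell. The 4 genes called, of 40, were all lower with tetracycline, against 8.57% of all 13067 tested genes called lower and 9.41% called higher. Of these, PSMG4 and PSMG1 are alpha ring chaperones, PSME3 encodes a nuclear activator of the core (PA28 gamma) and PSMB10 a catalytic subunit of the immunoproteasome. No member was called higher. A share of 4 in 40 is close to the share called lower over all genes. Members whose groups were apart, with no overlap of any arrays, numbered 9 lower and 1 higher, beside 12.3% and 15.3% of all genes.

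The promoters of these 4 genes are shown because they are the only members called in this comparison. Each is the stretch of 250 bases before the gene's start in RefSeq (GRCh38.p14), written 5′ to 3′ on the gene's strand. PSMG4 lies at chr6:3258697-3258946 on the plus strand, PSMG1 at chr21:39183452-39183701 on the minus strand, PSME3 at chr17:42833147-42833396 on the plus strand and PSMB10 at chr16:67936851-67937100 on the minus strand. Capitals mark matches on either strand to 4 motifs.
PSMG4: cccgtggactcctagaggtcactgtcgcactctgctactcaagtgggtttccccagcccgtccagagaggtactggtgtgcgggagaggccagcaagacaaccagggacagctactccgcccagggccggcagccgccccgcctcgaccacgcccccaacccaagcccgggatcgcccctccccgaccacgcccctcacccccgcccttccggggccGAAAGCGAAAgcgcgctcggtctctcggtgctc
PSMG1: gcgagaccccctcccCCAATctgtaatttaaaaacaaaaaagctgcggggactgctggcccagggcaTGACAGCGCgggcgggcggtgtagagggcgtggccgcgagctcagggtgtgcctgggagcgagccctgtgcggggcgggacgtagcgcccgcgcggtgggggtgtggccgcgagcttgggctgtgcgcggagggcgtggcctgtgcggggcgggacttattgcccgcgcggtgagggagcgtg
PSME3: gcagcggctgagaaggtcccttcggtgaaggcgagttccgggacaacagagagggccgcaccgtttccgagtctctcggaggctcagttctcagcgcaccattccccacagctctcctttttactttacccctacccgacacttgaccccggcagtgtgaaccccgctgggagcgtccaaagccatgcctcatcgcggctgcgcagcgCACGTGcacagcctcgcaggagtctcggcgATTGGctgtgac
PSMB10: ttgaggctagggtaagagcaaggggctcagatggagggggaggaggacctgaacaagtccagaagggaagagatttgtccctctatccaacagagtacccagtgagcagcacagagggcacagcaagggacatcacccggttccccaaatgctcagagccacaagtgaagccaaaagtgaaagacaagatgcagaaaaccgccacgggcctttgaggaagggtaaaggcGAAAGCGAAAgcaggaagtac

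The motifs, chosen after the changes were seen, were the element of interferon regulatory factors (GAAA, any 2 bases, then GAAA again), TGACNNNGC, the element of NFE2L1 and NFE2L2, CCAAT, which reads ATTGG on the other strand, and the E-box CACGTG. The same 10 letters, GAAAGCGAAA, lay 11 bases before the start of PSMB10 and 23 bases before that of PSMG4. The interferon element was in 2 of these 4 windows, in 4 of the 36 windows found for the 42 members (11.1%) and in 2.71% of 22199 windows of protein-coding genes. TGACNNNGC was in 10 of the 36 member windows (27.8%) against 11.2% of all windows, and of the 4 genes above PSMG1 held it. By class it was in 1 of 9 core windows (11.1%), 2 of 13 cap windows (15.4%) and 2 of 4 immunoproteasome windows. The shares of core and cap were thus near that of all windows. CCAAT was in 41.7% of member windows and 32.7% of all windows, and CACGTG in 8.33% and 7.37%. No marked match overlapped another in these 4 windows. A match is a description of the letters and not evidence of binding.

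PSMG4, which works with PSMG3 in alpha ring assembly, read 11.25, 11.10 and 10.12 in WT tetracycline, against 11.97, 12.28 and 11.75 in WT untreated. Every tetracycline array lay below every untreated one. PSMG4 fell by 1.18 ± 0.23 (SE, adjusted p = 0.00406), and it passed in each fit that left out 1 array. A second tested PSMG4 probe set, 242055_at, changed by 0.24 ± 0.36 (adjusted p = 0.69). On the mean of all PSMG4 probe sets, which includes untested ones, the change was 0.32 (adjusted p = 0.527).

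PSMG1, partner of PSMG2 in the same process, read 13.26, 12.97 and 12.64 in WT tetracycline, against 13.49, 13.63 and 13.62 in WT untreated. The groups were again apart, and the untreated arrays lay within a narrow band. PSMG1 fell by 0.62 ± 0.14 (SE, adjusted p = 0.00784). It passed without any 1 array, but not in a fit of the 6 WT line arrays (limma adjusted p = 0.0602) or without the third arrays of all groups (0.12). The chaperones PSMG2 and PSMG3 changed by -0.16 ± 0.12 and -0.17 ± 0.19 and did not pass.

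PSME3 read 11.30, 10.11 and 10.07 in WT tetracycline, against 11.70, 10.99 and 11.97 in WT untreated. Tetracycline replicate 1 lay above untreated replicate 2, so the groups overlapped. PSME3 fell by 1.06 ± 0.28 (SE, adjusted p = 0.0198). The call was lost without WT tetracycline replicate 2 (adjusted p = 0.0924) or 3 (0.0934), and without WT untreated replicate 1 (0.0599) or 3 (0.0885). It was also lost on the WT line arrays alone (limma adjusted p = 0.11), with eBayes without trend (0.0577) and without the third arrays of all groups (0.369). All 4 PSME3 probe sets were called lower, and the change of the other 3 lay between -2.05 and -1.40.

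PSMB10 read 6.58, 3.05 and 5.62 in WT tetracycline, against 8.08, 6.39 and 7.77 in WT untreated. Its signal was near or below the median of the whole table (6.39) on the tetracycline arrays, and 1 tetracycline array overlapped the lowest untreated one. PSMB10 fell by 2.33 ± 0.67 (SE, adjusted p = 0.0285). Without WT tetracycline replicate 2 the change was -1.31 (adjusted p = 0.0833), and without WT untreated replicate 1 or 3 it was -2.00 and -2.15 (adjusted p = 0.0963 and 0.092). The PSMB10 call was also lost on the WT line arrays alone (limma adjusted p = 0.138). It was lost as well with eBayes without trend (0.0609) and without the third arrays of all groups (0.226).

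**Figure D1:**
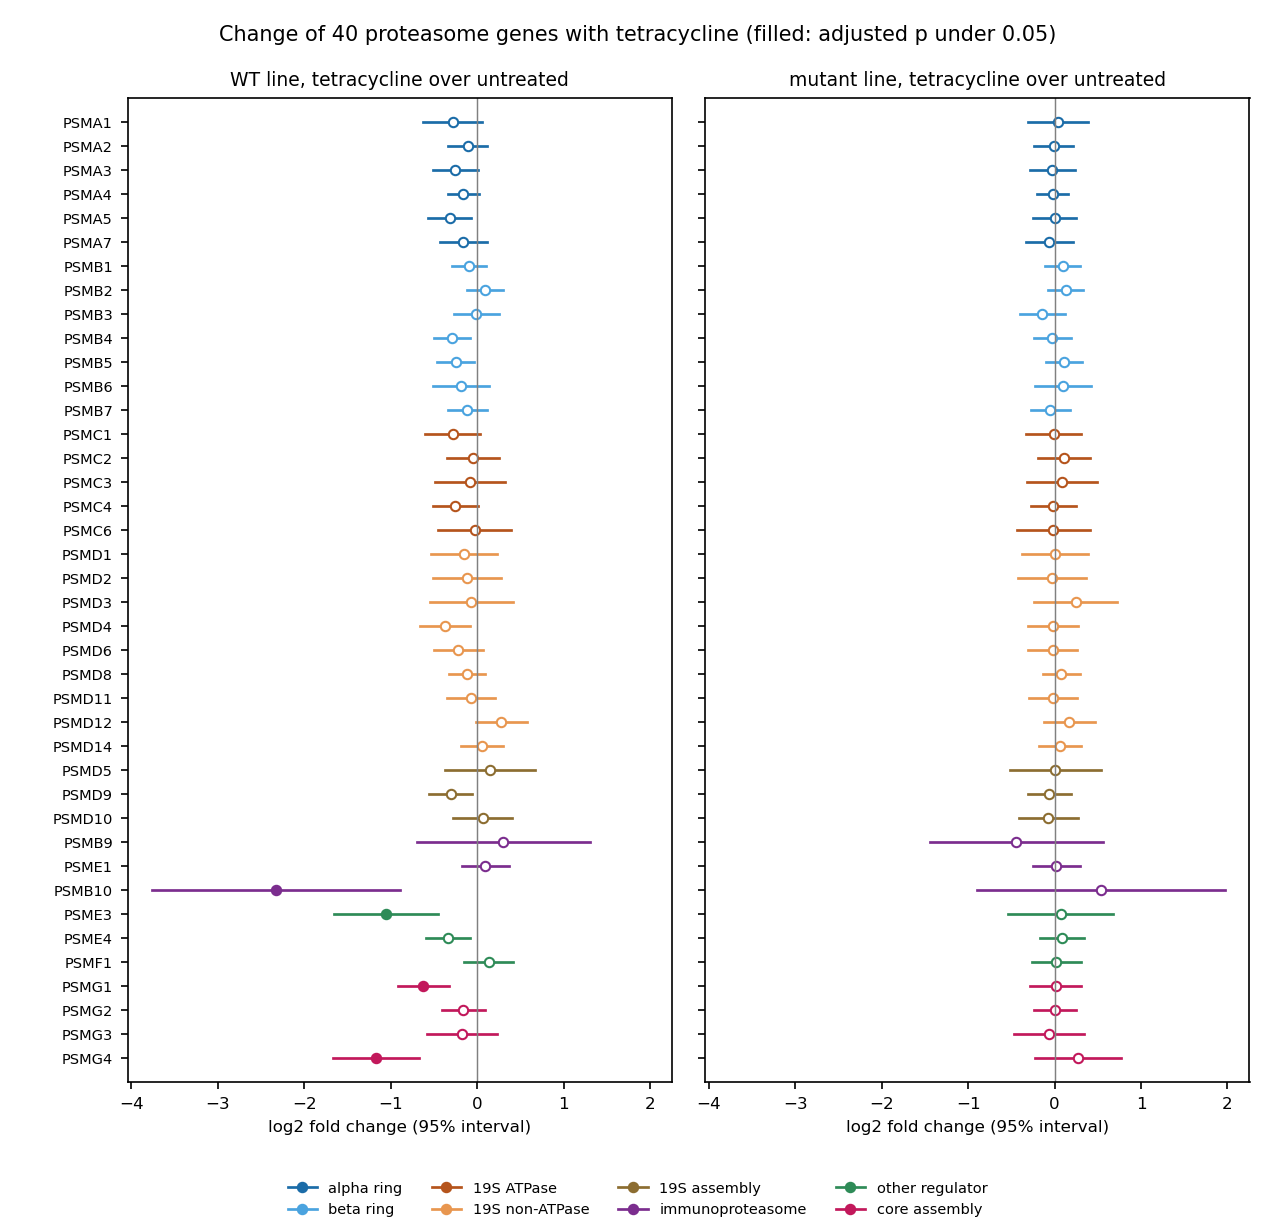
Log2 fold change of the 40 tested proteasome genes with tetracycline over untreated, in the WT line (left) and the mutant line (right), 3 arrays per group. Points are limma estimates with 95% intervals, coloured by class, and filled where the adjusted p was under 0.05. In the WT line the filled points are PSMG4, PSMG1, PSME3 and PSMB10, all below 0, and in the mutant line none is filled.

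The 13 core subunits held 0 calls. Their median change was -0.16, with 12 of 13 estimates below 0, and the 14 cap subunits held 0 calls with a median of -0.099 and 12 of 14 below 0. Over all tested genes the median was 0.032, and 6200 of 13067 estimates were below 0. The changes of these 27 subunits ran from -0.38 to 0.28, and all their 95% intervals lay between -0.67 and 0.57. The array medians show the same shift within its spread. The median deviation of the core genes from their own 12-array means was 0.12, -0.011 and -0.14 in WT tetracycline, against 0.24, 0.15 and 0.23 in WT untreated. WT tetracycline replicate 1 therefore lay close to the untreated arrays, and for the cap the groups overlapped, with 0.26, -0.080 and -0.12 in WT tetracycline and 0.36, -0.097 and 0.22 in WT untreated.

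The subunits nearest to the threshold were PSMB4, PSMD4, PSMA5 and PSMB5. PSMB4, a beta ring subunit without a catalytic site, read 13.67, 13.50 and 13.52 in WT tetracycline, against 13.89, 13.85 and 13.83 in WT untreated. Its groups were apart, with a change of -0.29 ± 0.10 (SE, limma adjusted p = 0.0571). PSMB5, which carries the chymotrypsin-like site targeted by bortezomib, read 13.22, 13.28 and 13.15 in WT tetracycline, against 13.47, 13.37 and 13.57 in WT untreated. Those groups were apart as well, with a change of -0.25 ± 0.099 (adjusted p = 0.0962). PSMD4, a ubiquitin receptor of the cap, changed by -0.38 ± 0.14 (adjusted p = 0.0719), and PSMA5 by -0.32 ± 0.12 (adjusted p = 0.0763). The proteasome activator PSME4 (PA200) gave -0.34 ± 0.12 (adjusted p = 0.0641), and PSMF1, an inhibitor of the core in vitro, 0.13 ± 0.13 (adjusted p = 0.536). Of the cap chaperones, PSMD9 gave -0.30 ± 0.12 (adjusted p = 0.0883), while PSMD5 and PSMD10 gave 0.15 ± 0.25 and 0.062 ± 0.16.

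The number of members called lower in the WT line depended on single arrays. Without WT tetracycline replicate 1 it was 12 of 40, the same 4 genes and PSMA1, PSMA5, PSMB4, PSMC1, PSMC4, PSMD4, PSME4 and PSMG3. It was 2 without WT tetracycline replicate 2, WT untreated replicate 1 or WT untreated replicate 3, and 1 with the 6 WT line arrays alone. In none of these fits was a member called higher. The shares of all genes called in these fits are not given here, so the counts only describe how the calls move. The summed linear signal of the 9 HEK markers lay between 79447 and 96830 in WT tetracycline, against 68462 to 71248 in WT untreated. That of the 9 fibroblast and endothelial markers lay between 1502 and 1548 in WT tetracycline, against 810 to 1177 in WT untreated, with 7 of the 9 averaging below the table median. The part of either in the result was not tested.

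The immunoproteasome genes were set against core and cap. PSMB8, whose product replaces PSMB5, read 2.57, 2.37 and 2.40 in WT tetracycline and 1.66, 5.74 and 1.94 in WT untreated, with 5.44, 2.29 and 1.88 in mutant tetracycline and 3.33, 2.23 and 2.98 in mutant untreated. All 12 values were below the table median of 6.39, and no test was made. PSMB9, whose product replaces PSMB6, read 6.21, 8.11 and 7.70 in WT tetracycline, against 6.52, 8.07 and 6.54 in WT untreated. These groups overlapped over nearly their whole range, with a change of 0.30 ± 0.47 (SE, adjusted p = 0.702).

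PSME1 read 12.48, 12.39 and 12.38 in WT tetracycline, against 12.18, 12.63 and 12.15 in WT untreated. Untreated replicate 2 lay above all 3 tetracycline arrays, and the change was 0.094 ± 0.13 (adjusted p = 0.651, interval -0.18 to 0.36). The 3 tested immunoproteasome genes thus had 1 call, PSMB10, and a median change of 0.094, beside medians of -0.16 for the core and -0.099 for the cap. In the mutant line PSMB9 read 7.15, 7.86 and 7.43 with tetracycline and 8.03, 7.93 and 7.81 untreated, and PSME1 read 12.19, 12.20 and 12.13 with tetracycline and 12.18, 12.14 and 12.14 untreated.

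**Figure D2:**
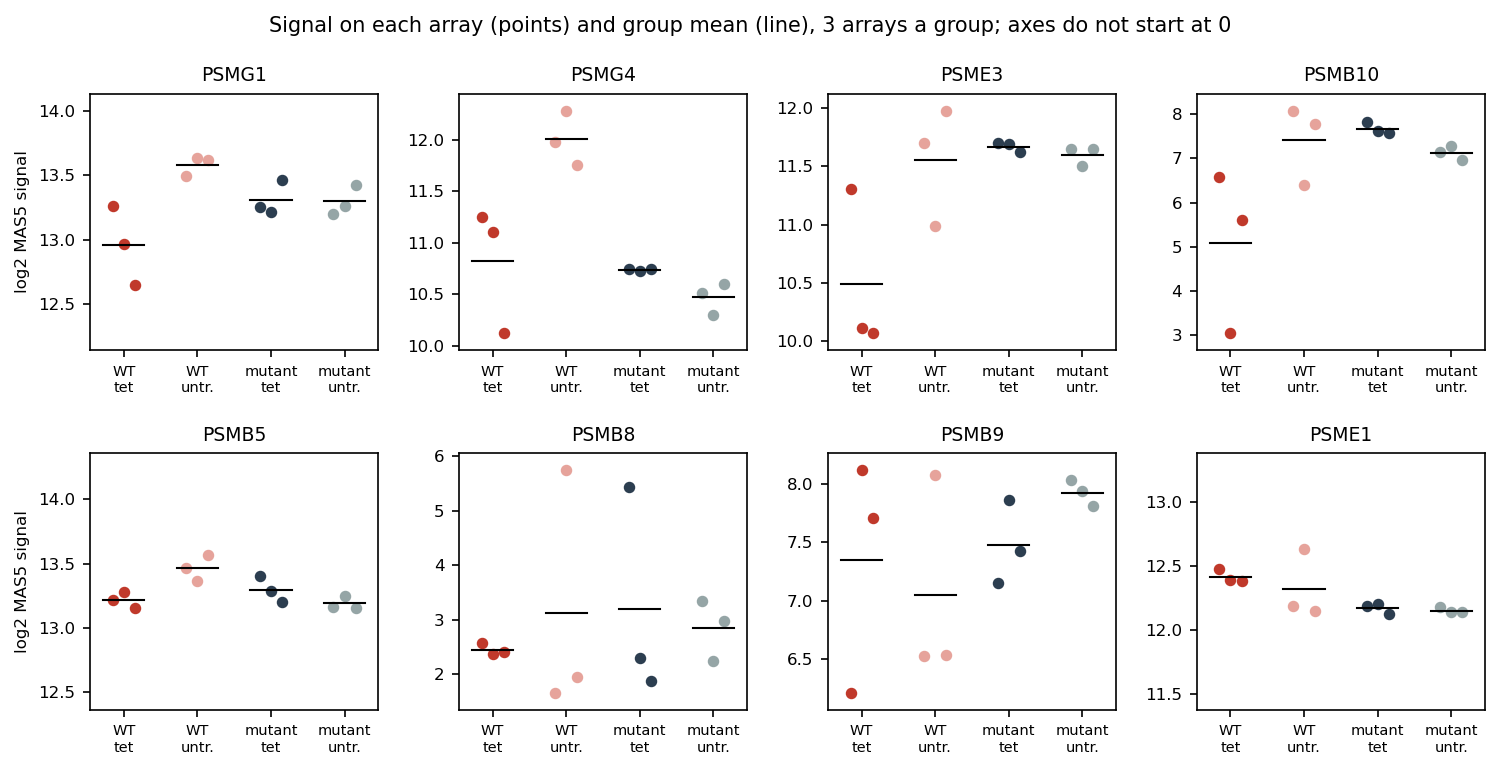
Log2 MAS5 signal on each array for PSMG1, PSMG4, PSME3, PSMB10, PSMB5, PSMB8, PSMB9 and PSME1, with 1 point per array and a line at each group's mean of 3 arrays. The vertical axes do not start at 0. PSMG4 and PSMG1 show WT tetracycline wholly below WT untreated, PSME3 and PSMB10 show an overlap, and in the mutant line the points of PSMG1, PSMG4, PSME3 and PSME1 lie close together while those of PSMB8 scatter.

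The same comparison in the mutant line asks what the inducer did with a channel that lacks the kinase. There 0 of 40 members were called by limma, against a background of 0% of all 13067 tested genes. On the brightest probe sets no member had an unadjusted p under 0.05, while 231 of 13067 genes did. Over all tested probe sets it was 3 of 69 for the members, namely PSMA2 201316_at and PSMC2 201067_at and 238020_at, and 620 of 29553 in all. The median change of the members was 0.0046, beside 0.016 for all genes, and the intervals of the 27 core and cap subunits lay between -0.43 and 0.73.

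The 4 members with the smallest p were PSMB2, PSMD12, PSMB3 and PSMG4. PSMB2, a beta ring subunit, read 13.59, 13.68 and 13.48 in mutant tetracycline, against 13.43, 13.56 and 13.37 in mutant untreated, with a change of 0.13 ± 0.096 (SE, adjusted p = 1). PSMB3 read 13.40, 13.64 and 13.69 in mutant tetracycline and 13.65, 13.77 and 13.73 in mutant untreated, with a change of -0.14 ± 0.12. Both pairs of groups overlapped. PSMG4 read 10.74, 10.73 and 10.75 in mutant tetracycline, against 10.52, 10.30 and 10.60 in mutant untreated. Here every tetracycline array lay above every untreated one, and the change of 0.27 ± 0.23 did not pass (adjusted p = 1). PSMB10 and the cap subunit PSMD3 were also apart in that direction, at 0.54 ± 0.67 and 0.25 ± 0.23, so 3 of 40 members were apart upward and 0 downward, beside 7.7% and 4.83% of all genes.

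Whether the changes in the WT and the mutant line differed was tested directly. The difference of the changes, WT minus mutant, passed for 0 of 40 members by limma, against 0.145% of all tested genes, and 6 of 40 members had an unadjusted p under 0.05, beside 1991 of 13067 genes, a like share. PSMG4 had a difference of -1.44 ± 0.33 (SE, adjusted p = 0.0861, interval -2.15 to -0.74), PSMG1 of -0.64 ± 0.20 (adjusted p = 0.167) and PSMB10 of -2.87 ± 0.95 (adjusted p = 0.194). PSME3 gave -1.13 ± 0.40 (adjusted p = 0.221), PSMB5 -0.36 ± 0.14 (adjusted p = 0.258) and PSME4 -0.43 ± 0.17 (adjusted p = 0.263). These values hold for the brightest probe set of each gene. With the PSMG4 probe sets averaged its difference was 0.63 (adjusted p = 0.558), the opposite sign. The lower signal of these genes in the WT line is therefore not shown to differ from the change in the mutant line. Without WT tetracycline replicate 1 the count was 4, and with limma array weights it was also 4, namely PSMG4, PSMG1, PSMB10 and PSME3 in both cases.

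For several core and cap genes another probe set of the same gene fell in the WT line while the brightest did not pass. Of 17 members whose brightest probe set was not called and that had another tested one, 8 had another probe set called lower and 0 had one called higher. Over all genes of that kind the shares were 11.7% lower and 7.55% higher of 5381. The 8 genes were PSMA2, PSMA5, PSMB4, PSMC2, PSMD12, PSMD9, PSME4 and PSMF1. Between the untreated lines such members numbered 10, with 1 lower (PSME4) and 1 higher (PSMB4), beside 15.6% and 3.14% of all genes. With tetracycline they numbered 12, with 3 lower and 2 higher, beside 27.1% and 8.47%. These counts are a description without a test.

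PSMC2, an ATPase of the cap, shows the pattern. Its brightest probe set, 201068_s_at, read 13.93, 13.66 and 13.30 in WT tetracycline, against 13.87, 13.54 and 13.62 in WT untreated, and changed by -0.045 ± 0.14 (adjusted p = 0.856). The probe set 201067_at read 8.99, 8.57 and 8.36 in WT tetracycline, against 10.49, 9.83 and 10.39 in WT untreated, and fell by 1.59 ± 0.20 (adjusted p = 0.000274). Another PSMC2 probe set, 238020_at, fell by 2.17 ± 0.27 (adjusted p = 0.000274). On these dimmer probe sets the groups were apart, and on the brightest they overlapped. In the mutant line 201067_at and 238020_at changed by -0.64 ± 0.20 and -0.71 ± 0.27, with groups apart but no call (adjusted p = 1 for both), and the difference between the lines did not pass (adjusted p = 0.145 and 0.115).

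PSMD12, a subunit of the cap's lid, divided in the same way. Its brightest probe set, 202352_s_at, read 13.08, 13.11 and 13.09 in WT tetracycline, against 13.06, 12.49 and 12.88 in WT untreated, a change of 0.28 ± 0.14 (adjusted p = 0.184). Its probe set 202353_s_at read 10.78, 10.60 and 10.95 in WT tetracycline, against 11.54, 11.53 and 11.99 in WT untreated, and fell by 0.91 ± 0.15 (adjusted p = 0.00144). The groups were apart on both probe sets, upward on the brightest and downward on the other.

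PSMA2, an alpha ring subunit, read 13.68, 13.68 and 13.38 on its brightest probe set in WT tetracycline, against 13.72, 13.71 and 13.63 in WT untreated, a change of -0.11 ± 0.11 (adjusted p = 0.525). Its probe set 201316_at read 10.11, 9.53 and 9.47 in WT tetracycline, against 11.01, 10.78 and 11.35 in WT untreated, and fell by 1.34 ± 0.21 (adjusted p = 0.000835). Only the second had groups apart. The PSMA5 probe set 230300_at read 4.83, 2.04 and 1.67 in WT tetracycline, against 7.69, 5.75 and 7.63 in WT untreated, and was called lower (adjusted p = 0.00239). All 3 tetracycline values were below the table median of 6.39, so no fold is given for it. PSMB4, PSMD9, PSME4 and PSMF1 had changes between -0.84 and -0.38 on their called probe sets. Within arrays, the log2 ratio of 201316_at over the brightest PSMA2 probe set fell with tetracycline in both lines. Its group mean changed by -1.24 in the WT line and by -0.45 in the mutant line. For 202353_s_at of PSMD12 these changes were -1.19 and -0.42, and for 201067_at of PSMC2 -1.55 and -0.75. The ratios of other members did not all fall. They changed by 0.86 and 0.31 for 237300_at of PSMA3, and by 1.41 and -0.64 for 242055_at of PSMG4. None of the ratios was tested. Where the probes of each set lie on the transcripts was not analysed here. The 3′ to 5′ actin ratio was 0.903 to 1.36 in WT tetracycline and 0.632 to 1.29 in WT untreated, and its part in the result was not tested.

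**Figure D3:**
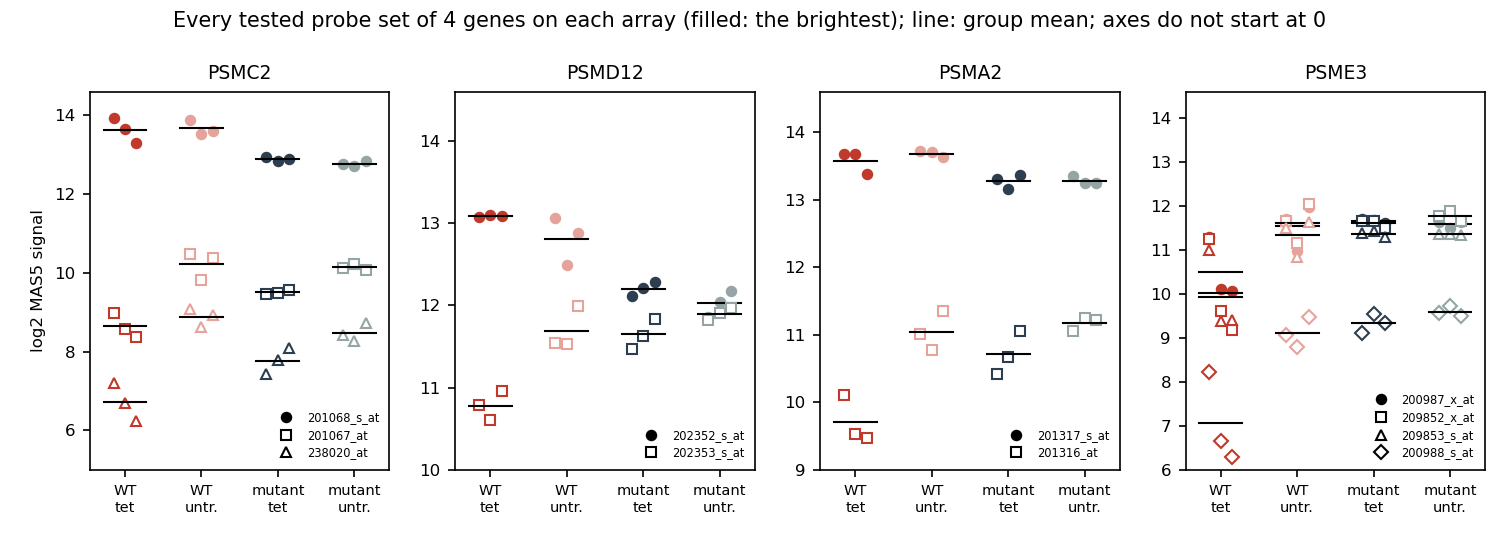
Log2 MAS5 signal on each array for every tested probe set of PSMC2, PSMD12, PSMA2 and PSME3, with filled points for the brightest probe set of each gene. For PSMC2, PSMD12 and PSMA2 the other probe sets are lower in WT tetracycline than in WT untreated while the brightest overlaps or is higher, and for PSME3 all 4 were called lower.

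The untreated WT line was compared with the untreated mutant line to ask how the lines differed without the inducer. Of 40 members 11 were higher in the WT line and 0 lower, against 5.84% of all tested genes called higher and 6.82% called lower. The 11 were the core subunits PSMB1, PSMB7, PSMA5, PSMA2, PSMA1 and PSMB2, the cap subunits PSMC2, PSMD12, PSMC1 and PSMD4, and the chaperone PSMG4. All 13 core estimates were above 0, with a median of 0.36, and the cap had a median of 0.25, beside -0.015 for all genes. Members whose groups were apart numbered 19 higher and 0 lower, beside 17.1% and 18.5% of all genes.

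PSMB1, a non-catalytic beta subunit, read 14.18, 14.18 and 14.13 in WT untreated, against 13.43, 13.58 and 13.58 in mutant untreated. The groups were far apart for their spread, with a difference of 0.63 ± 0.094 (SE, adjusted p = 0.00112). PSMG4 was 1.53 ± 0.23 higher in WT untreated (adjusted p = 0.00136), on the array values given above. PSMC2 was 0.90 ± 0.14 higher (adjusted p = 0.00149), with 12.77, 12.73 and 12.84 in mutant untreated beside the WT untreated values above.

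PSMD12 read 11.86, 12.04 and 12.18 in mutant untreated, and was 0.79 ± 0.14 higher in WT untreated (adjusted p = 0.00301). PSMB7, which carries the trypsin-like site, read 13.77, 13.86 and 13.96 in WT untreated, against 13.13, 13.37 and 13.34 in mutant untreated. The difference was 0.58 ± 0.11 (adjusted p = 0.00375). PSMA5 read 12.81, 12.89 and 12.70 in WT untreated, against 12.31, 12.33 and 12.32 in mutant untreated, a difference of 0.48 ± 0.12 (adjusted p = 0.0157). The groups of PSMC2, PSMD12, PSMB7 and PSMA5 were all apart. The other called members differed by 0.33 to 0.57. For PSMB1, both tested probe sets were called higher. Neither 201067_at of PSMC2 (0.093 ± 0.20) nor 202353_s_at of PSMD12 (-0.21 ± 0.15) was called. Estimates below 0, none called, also came from 230300_at of PSMA5 (-0.46 ± 0.76), 201404_x_at of PSMB2 (-0.36 ± 0.21) and 201316_at of PSMA2 (-0.13 ± 0.20). Above 0 were 201676_x_at of PSMA1, called at 0.65 ± 0.20, and its 210759_s_at, not called. Also above 0 without a call were 238020_at of PSMC2, 238425_at of PSMB2, and 211609_x_at and 210460_s_at of PSMD4. On the mean of all PSMG4 probe sets the difference was -0.15 (adjusted p = 0.808).

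The count for the untreated lines was 5 after quantile normalization and 7 without WT untreated replicate 1, when 1 of them, PSMF1, was lower. It was 5 without mutant untreated replicate 1 or 2, and 6 without mutant untreated replicate 3. The actin ratios of the lines did not overlap while the GAPDH ratios did, as given above, and their part in the result was not tested. Line and construct cannot be told apart, with 1 line for each.

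With tetracycline, 6 members were higher in the WT line and 5 were lower, against 13.3% and 14.9% of all tested genes. The 6 were all core or cap subunits, and all had also been higher without tetracycline. The groups were apart for 9 members upward and 7 downward, beside 20.6% and 21.3% of all genes. After quantile normalization 4 were higher and 7 lower.

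PSMD12 was 0.89 ± 0.14 higher (SE, adjusted p = 0.000548), with 12.11, 12.21 and 12.28 in mutant tetracycline beside the WT tetracycline values above. PSMC2 was 0.74 ± 0.14 higher (adjusted p = 0.00196), with 12.95, 12.83 and 12.90 in mutant tetracycline. PSMB7 read 13.67, 13.92 and 13.66 in WT tetracycline, against 13.22, 13.17 and 13.31 in mutant tetracycline, a difference of 0.52 ± 0.11 (adjusted p = 0.00322). These 3 genes had groups apart. PSMB1 read 14.04, 14.00 and 14.16 in WT tetracycline, against 13.52, 13.64 and 13.72 in mutant tetracycline, a difference of 0.44 ± 0.094 (adjusted p = 0.00362). PSMA2 and PSMB2 differed by 0.30 and 0.29 (adjusted p = 0.0451 and 0.0363). These were the weakest calls of the 6, and of 22 alternatives they passed in 8 and 11, with losses without single arrays, without the filter and after quantile normalization.

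Of the 5 lower members, PSME3 differed by -1.17 ± 0.28 (adjusted p = 0.00764) and read 11.70, 11.69 and 11.62 in mutant tetracycline, above all 3 WT tetracycline arrays. PSMB10 differed by -2.59 ± 0.67 (adjusted p = 0.0114), with 7.82, 7.63 and 7.56 in mutant tetracycline. The others were the cap subunits PSMD3 (-0.83 ± 0.23, adjusted p = 0.0148) and PSMC4 (-0.45 ± 0.12, adjusted p = 0.0139) and the activator PSME4 (-0.43 ± 0.12, adjusted p = 0.0149). PSME3, PSMB10, PSMD3, PSMC4 and PSME4 did not differ past the threshold without tetracycline. PSMG4, the member furthest apart between untreated lines, differed by 0.085 ± 0.23 with tetracycline (adjusted p = 0.814, interval -0.41 to 0.58). The comparisons of the lines and of treatments share arrays, so PSMG4's high WT untreated values enter both its fall and its difference between the untreated lines.

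In this comparison called probe sets of 1 gene opposed each other for PSMA2, PSMB4, PSMC2 and PSMD12. The brightest probe set of PSMC2 was higher in WT tetracycline by 0.74 while 201067_at was lower, at -0.86 ± 0.20 (adjusted p = 0.00578). For PSMD12 the values were 0.89 and, on 202353_s_at, -0.87 ± 0.15 (adjusted p = 0.00122). For PSMA2 they were 0.30 and, on 201316_at, -1.01 ± 0.21 (adjusted p = 0.00291). PSMB4 had 228204_at higher, at 0.64 ± 0.18 (adjusted p = 0.0163), and 202243_s_at lower, at -0.35 ± 0.10 (adjusted p = 0.0183), while its brightest was not called. The direction between lines therefore depends on the probe set for these 4 genes. The total count with tetracycline was 7 without WT tetracycline replicate 2.

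**Figure D4:**
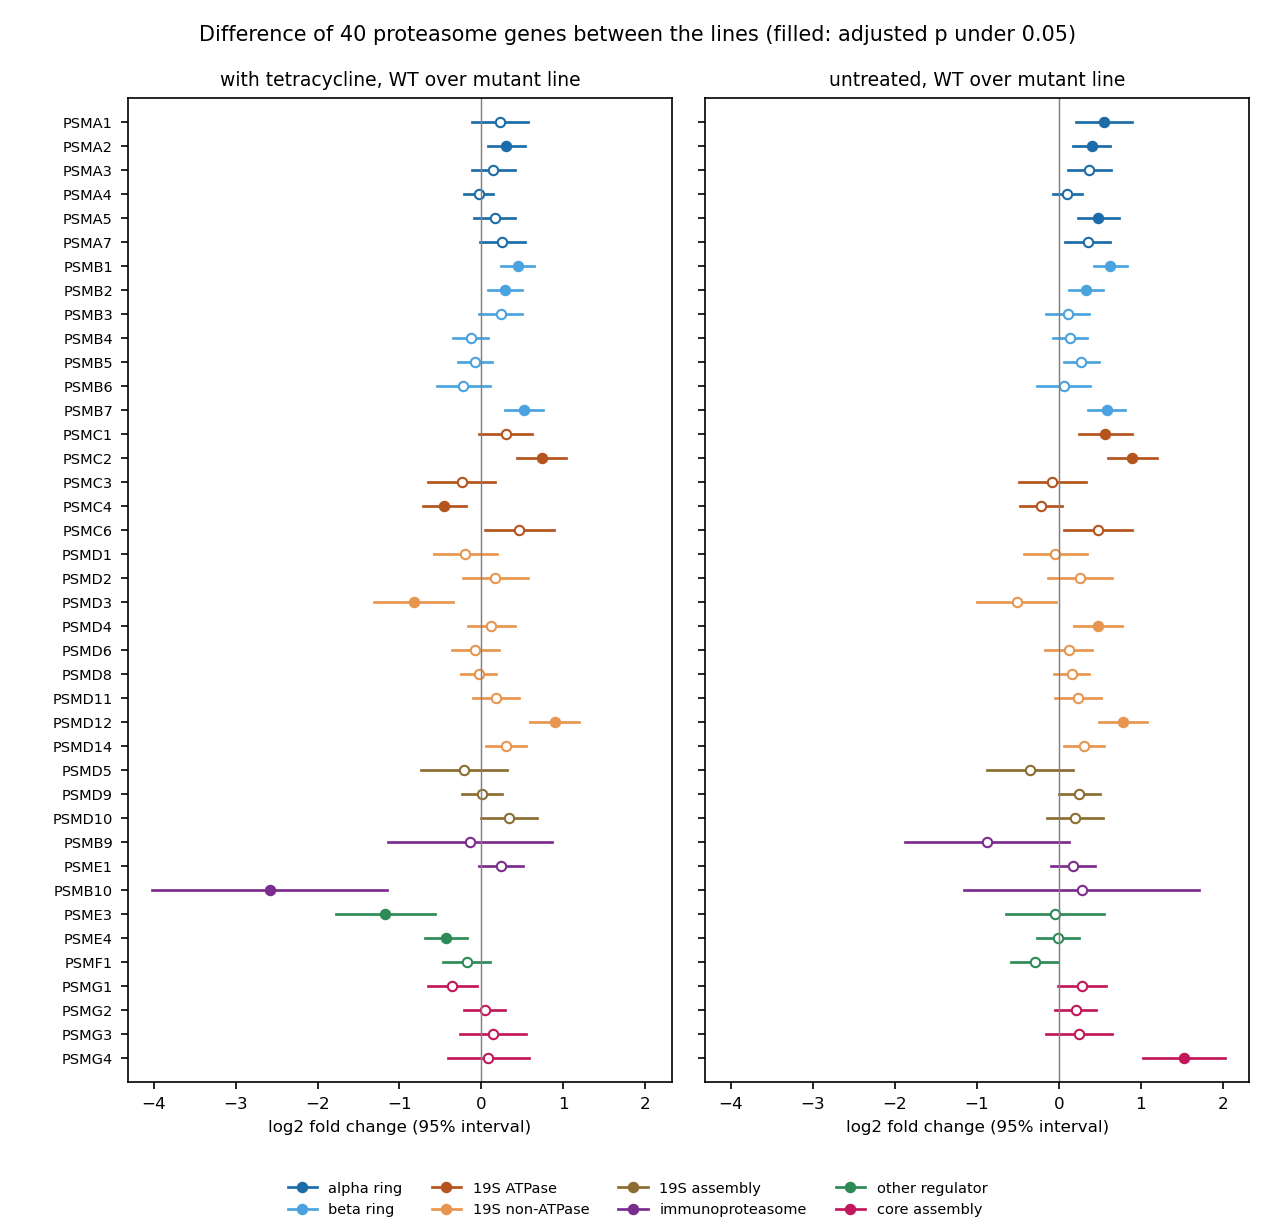
Log2 difference between the lines, WT over mutant, for the 40 tested proteasome genes with tetracycline (left) and untreated (right), 3 arrays per group. Points are limma estimates with 95% intervals and are filled where the adjusted p was under 0.05. Untreated, the 11 filled points all lie above 0, and with tetracycline 6 lie above and 5 below.

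The spread between arrays differed between the lines, for all tested probe sets as for the members. Over all tested probe sets the median SD over 3 arrays was 0.326 in WT tetracycline and 0.299 in WT untreated. It was 0.190 in mutant tetracycline and 0.174 in mutant untreated. The median SD of a member over 3 arrays was 0.186 in WT tetracycline and 0.197 in WT untreated, against 0.0878 in mutant tetracycline and 0.084 in mutant untreated. The fit pools the spread of all groups, so SEs are too small for the WT line where its arrays scatter more, and too large for the mutant line.

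Other genes of the pathway were read from 3 lists. Of 25 proteasome partners 21 were tested, and in the WT line 2 rose with tetracycline and 1 fell, with a median of -0.062, beside 9.41% and 8.57% of all genes. AKIRIN2, a factor for nuclear import of proteasomes, rose by 0.89 ± 0.20 (adjusted p = 0.0074), and SEM1, a small subunit of the cap, rose by 0.56 ± 0.18 (adjusted p = 0.0423). ECPAS, a proteasome adaptor and scaffold, fell by 0.59 ± 0.16 (adjusted p = 0.0197). Between the untreated lines 3 partners were higher in the WT line and 2 lower, beside 5.84% and 6.82% of all genes, among them POMP, the maturation factor of the core, at 0.43 ± 0.11 (adjusted p = 0.0153) and the ubiquitin-activating enzyme UBA1 at -0.52 ± 0.14 (adjusted p = 0.022).

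Of 13 genes around NFE2L1 10 were tested, and in the WT line 2 rose and 0 fell, against the same shares of 9.41% and 8.57% over all genes. NFE2L1 itself rose by 0.66 ± 0.16 (adjusted p = 0.0138) and MAFF, a small MAF protein that pairs with such factors, by 2.39 ± 0.44 (adjusted p = 0.00247). On their brightest probe sets the 27 core and cap members had 0 calls in the same comparison. Other probe sets of PSMA2, PSMA5, PSMB4, PSMC2 and PSMD12 were called lower, as given above. Of 27 genes of antigen presentation and interferon signalling 24 were tested. In the WT line 5 of the 24 rose and 2 fell, beside 9.41% and 8.57% of all genes. The median change of the 24 was 0.032, the same as over all genes. HLA-E and HLA-C, MHC class I heavy chains whose probe sets may share sequence with other HLA genes, rose by 0.69 ± 0.12 (adjusted p = 0.0017) and 0.89 ± 0.16 (adjusted p = 0.00214). The interferon gamma receptor chain IFNGR1 rose by 0.66 ± 0.13 (adjusted p = 0.00329), while ERAP1, which trims peptides in the endoplasmic reticulum, fell by 2.09 ± 0.39 (adjusted p = 0.00295). In the untreated lines 6 of the 24 were lower in the WT line and 0 higher, with a median of -0.29, beside 6.82% and 5.84% of all genes and a median of -0.015. In the mutant line 0 genes of these 3 lists were called with tetracycline.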

How the data were processed

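Total RNA was measured on 12 Affymetrix arrays. The deposited values are MAS5 signals, a linear intensity for each probe set, as the submitters' processing notes name them. The MAS5 version and settings are not given in the sources used here. The mean after trimming 2% at each end was about 500 on every array, so the deposited intensity had been scaled per array. Here signals under 1 were set to 1 and log2 was taken. Of 54675 probe sets, 29553 with a group mean above the table median (6.39) were tested, without the 62 AFFX controls. All 12 arrays entered 1 limma fit (limma 3.58.1, R 4.3.3) with a mean per group and eBayes with trend, and p-values were adjusted by Benjamini-Hochberg over all tested probe sets within each contrast. Precision is limited by the number of arrays. The fit was tested on simulated data.

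Probe sets were named from GEO's platform annotation, with symbols updated through Entrez IDs. Of the probe sets 41097 carried 1 symbol, 1801 several and 11721 none, and only those with 1 were used. The proteasome genes, lists, tests and named-gene rule were chosen with earlier results of these data known. Values per array are given for the immunoproteasome genes, members called in the WT line, up to 6 members with the smallest p in each other comparison (4 in the mutant line) and members whose called probe sets oppose each other, and further members near the threshold were named after their values were seen. Promoter windows are the 250 bases before the start in RefSeq GRCh38.p14, found for 36 of 42 members. Alternatives were no filter, a 75th percentile filter, an offset of 16, quantile normalization, eBayes without trend, only the arrays compared, a replicate block, leaving out arrays, array weights, any tested probe set, and averaging a gene's probe sets. Plots used matplotlib 3.10.9 (Python 3.11.15).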

Additional observations from a re-analysis of the deposited data

Results flagged for a closer look

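The brightest PSMG4 probe set stood out because its arrays moved in opposite directions in the lines. On it all 3 WT tetracycline arrays lay below all 3 WT untreated arrays, and all 3 mutant tetracycline arrays lay above all 3 mutant untreated arrays. The difference of the changes, WT minus mutant, was -1.44 on the log2 scale and did not pass (limma adjusted p = 0.0861). The other tested PSMG4 probe set gave the opposite signs, 0.24 ± 0.36 for the WT line and -0.37 ± 0.36 for the mutant line (SE), and with the probe sets averaged the difference was 0.63 (adjusted p = 0.558).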

How the results depend on the processing

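The mutant line gave 0 called members under every alternative run. In the WT line the main count of 4, all lower, was 2 with eBayes without trend, 1 with only the arrays compared, 1 without the third arrays of all groups, 12 when any tested probe set of a gene could count and 9 with a gene's probe sets averaged, and ranged from 2 to 12 when 1 array was left out. The difference of the changes had 0 calls, 4 with array weights and 0 to 4 leaving out 1 array. The untreated lines had 11, but 7 without the filter, 5 after quantile normalization, 5 with eBayes without trend, 7 without the third arrays, 4 with probe sets averaged and 5 to 12 leaving out 1 array. The lines with tetracycline had 11, but 6 without the third arrays and 7 to 12 leaving out 1 array. Shares over all genes are not given here for these alternatives. The median change of all probe sets between lines was -0.092 untreated and -0.10 with tetracycline, and 0.0073 and -0.013 after quantile normalization.

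With a gene's probe sets averaged, which brings in dim ones, the sign turned in 36 of 195 changes. In 27 of these neither value was called, the PSMG4 difference of the changes (0.63) among them. The other 9 were PSMG4 in the WT line (0.32), PSMB2 (-0.41), PSMB7 (-0.034) and PSMG4 (-0.15) between untreated lines and, between the lines with tetracycline, PSMB1 (-0.27), PSMA2 (-0.35), PSMC2 (-0.39), PSMA5 (-1.58) and PSMD9 (-0.50). Why was not tested. Same-numbered arrays of a line correlated at 0.0258 to 0.253 in their deviations, all above 0. The sources used here do not say that the numbers mark a shared batch, so the main fit did not take them as pairs. Whether they mark one was not tested. With the replicate block the counts were 5 in the WT line, 0 in the mutant line, 0 for the difference, 13 for the untreated lines and 14 for the lines with tetracycline. Single dim probe sets such as that of PSMB10 limit what their folds can show.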
